A study of Homo sapiens with 8 samples.

Results

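The genes CLEC5A, MGAM, SSBP1, AGK, KIAA1147 and WEE2 lie near each other on the long arm of human chromosome 7, in band 7q34. CLEC5A and MGAM were picked because they were far higher in KDM1A knockout cells than in control cells, and the other 4 genes because they lie beside them. The members were thus chosen by the counts of CLEC5A and MGAM and by position. The 6 genes were found by symbol among the 23228 genes listed, and 5 of them passed the filter on low counts. WEE2 did not pass it, and CLEC5A and MGAM passed only through the knockout libraries. The question was whether the gain in knockout cells was confined to CLEC5A and MGAM. Because the choice used the difference between knockout and control cells with vehicle, that difference is given as a description with no test. The same holds for CLEC5A and MGAM under LY500307.

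RNA was sequenced in 8 libraries of ES2 cells, a human ovarian cancer line, with 2 libraries in each of 4 groups. The groups were KDM1A knockout cells given 5 µM LY500307, control cells given 5 µM LY500307, knockout cells given vehicle and control cells given vehicle, all for 48 h. KDM1A (also called LSD1) is a histone demethylase that acts in repressor complexes, and LY500307 is an agonist of oestrogen receptor beta. The sources used here do not say whether the knockout cells are 1 clone or a pool, so an effect of KDM1A loss and other differences between the cell populations cannot be told apart. No label describes the duplicates as separate cultures. The p-values here therefore measure the spread between these samples alone, and that spread may be technical.

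CLEC5A encodes a C-type lectin receptor of myeloid cells. It signals through the adaptor DAP12, encoded by TYROBP, and the kinase SYK, and it is known as a receptor for dengue virus. MGAM encodes maltase-glucoamylase, a brush border enzyme of the small intestine that releases glucose from the ends of starch chains. The others have unrelated tasks. SSBP1 binds single-stranded mitochondrial DNA during its replication, and AGK phosphorylates acylglycerols and is a subunit of the TIM22 protein import complex. WEE2 is a WEE1-type kinase of the oocyte that inhibits CDK1, and KIAA1147, also called DENND11, belongs to the DENN domain family. Histone marks and contacts between chromosomal sites were not measured in these libraries.

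Positions are those of GENCODE on GRCh37 (hg19). From the centromere outwards, AGK spans bases 141251078 to 141355044 on the plus strand of chromosome 7 and KIAA1147 141356528 to 141401966 on the minus strand. WEE2 spans 141408153 to 141431071 and SSBP1 141438134 to 141487722, both on the plus strand. CLEC5A follows at 141627157 to 141646807 on the minus strand. MGAM is annotated at 141607613 to 141806547 on the plus strand. Its canonical transcript starts at 141695679, which is 48.9 kb from the canonical start of CLEC5A, so these transcripts run away from each other. A longer MGAM transcript, from 141607613 to 141720880, spans all of CLEC5A on the opposite strand. The sources used here do not give the strand setting of the counting, so reads from bases that CLEC5A and this transcript share cannot be told apart by strand.

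The promoter windows of 4 genes are shown because those of the gained genes and of an expressed neighbour differ in CG content. Each runs from 250 bases before to 50 bases after the annotated start (RefSeq, GRCh38.p14), 5′ to 3′ on the strand of the gene, and capitals mark CG dinucleotides. The windows lie at chr7:141946925-141947224 on the minus strand for CLEC5A and at chr7:141995629-141995928 on the plus strand for MGAM. Those of WEE2 and AGK lie on the plus strand at chr7:141708103-141708402 and chr7:141551160-141551459.
CLEC5A: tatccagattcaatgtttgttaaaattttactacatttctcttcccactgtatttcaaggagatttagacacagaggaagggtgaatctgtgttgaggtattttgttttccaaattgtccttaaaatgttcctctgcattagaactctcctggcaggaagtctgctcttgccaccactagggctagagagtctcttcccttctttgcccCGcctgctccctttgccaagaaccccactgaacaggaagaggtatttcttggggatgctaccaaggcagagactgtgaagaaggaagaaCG
MGAM: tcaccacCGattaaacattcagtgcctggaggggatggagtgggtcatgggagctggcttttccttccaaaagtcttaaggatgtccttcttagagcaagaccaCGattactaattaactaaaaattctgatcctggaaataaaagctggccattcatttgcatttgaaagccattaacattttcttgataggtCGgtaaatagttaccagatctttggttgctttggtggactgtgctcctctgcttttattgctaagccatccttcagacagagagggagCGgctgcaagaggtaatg
WEE2: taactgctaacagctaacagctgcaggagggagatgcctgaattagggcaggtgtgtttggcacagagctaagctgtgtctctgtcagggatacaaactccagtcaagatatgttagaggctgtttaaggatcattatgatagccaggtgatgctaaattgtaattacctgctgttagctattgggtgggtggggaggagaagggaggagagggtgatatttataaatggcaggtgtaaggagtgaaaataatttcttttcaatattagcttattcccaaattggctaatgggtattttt
AGK: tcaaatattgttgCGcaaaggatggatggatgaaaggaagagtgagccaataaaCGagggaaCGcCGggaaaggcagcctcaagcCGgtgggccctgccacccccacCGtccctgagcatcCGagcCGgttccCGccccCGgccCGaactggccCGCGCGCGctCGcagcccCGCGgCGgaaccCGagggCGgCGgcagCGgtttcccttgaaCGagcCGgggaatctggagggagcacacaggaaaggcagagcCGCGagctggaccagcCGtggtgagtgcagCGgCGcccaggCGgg

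The CLEC5A window held 2 CG dinucleotides and the MGAM window 4, against a median of 14 over the 35116 windows of the table. As few or fewer were found in 18.2% of windows for CLEC5A and in 29.6% for MGAM. WEE2, the member without reads in 7 of 8 libraries, had 0, as had 3.96% of windows. The windows of the expressed neighbours held more CG dinucleotides. AGK had 31, KIAA1147 had 49 and the 3 annotated windows of SSBP1 had 18, 20 and 21. On both strands, TATAAA matched only in the WEE2 window among the 6 genes, at 2 places that overlap, and 11.5% of all windows held it. The letters TGANTCA were in none of the members' windows, and 7.71% of all windows held them. These are matches of letters, not mapped sites.

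The libraries held 24348937 to 30131097 gene counts each, over 15233 to 15809 genes. KDM1A stood at 71.9 and 71.5 CPM (the count relative to the library's total after TMM scaling) in knockout libraries with LY500307, against 238.3 and 241 CPM in control libraries with LY500307. With vehicle it stood at 75.6 and 77.8 CPM in knockout libraries, against 220 and 219.3 CPM in control libraries. KDM1A was thus lower in each of the 4 knockout libraries, with transcript still counted there. Of 6 markers of ovarian epithelial carcinoma, all had counts, and KRT18 was the most abundant, at 143.3 ± 2.80 CPM in knockout cells and 362.3 ± 3.22 CPM in control cells under LY500307 (SD, n = 2 each).

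One library stood apart in a way that touches CLEC5A and MGAM. Among 7 genes that were at least 50-fold higher in knockout than in control cells with vehicle and reached 20 CPM, each had more reads in replicate 2 of the LY500307-treated control cells than in replicate 1. These genes are CCDC147, CLEC5A, IL13RA2, LAMA1, MGAM, MMP3 and SGCZ. Relative to the level in LY500307-treated knockout cells, the excess of replicate 2 over replicate 1 was 0.747 to 1.89 percentage points. The median residual level was 1.88% in replicate 2 and 0.742% in replicate 1, and in the control libraries with vehicle it was 1.15% and 1.34%. For 14 genes that were higher in control cells by the same rule, the median in the 4 knockout libraries lay between 0.314% and 0.435%. What raised these reads in replicate 2 was not tested, and results that rest on it are given with and without it.

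**Figure D1:**
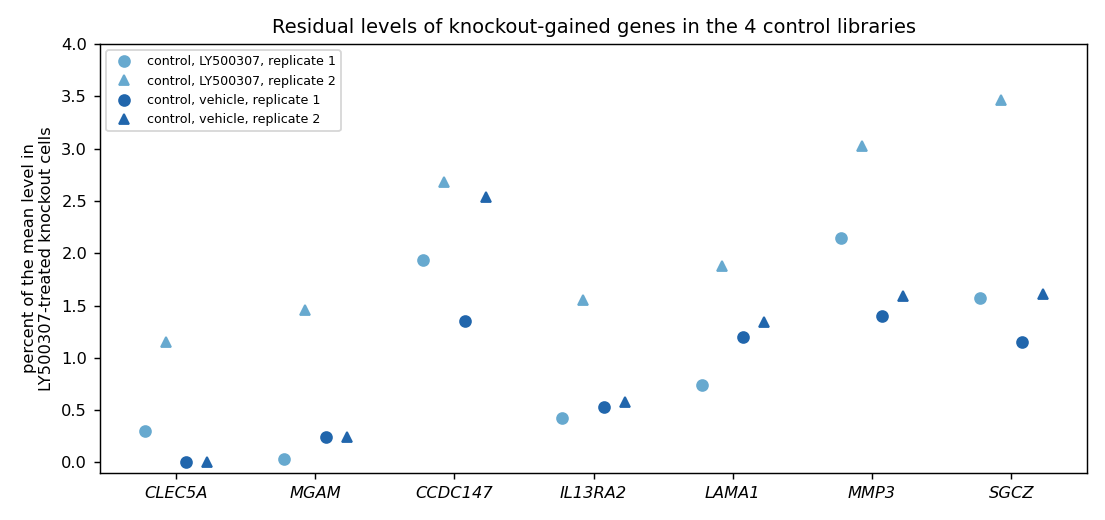
Level of each of the 7 genes in the 4 control libraries (points), as a percent of the mean level in LY500307-treated knockout cells (y axis). Replicate 2 of the LY500307-treated control cells lies above replicate 1 for each gene, with MGAM at 1.46% against 0.0333%.

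CLEC5A and MGAM were strongly counted in knockout cells and almost absent from control cells. CLEC5A had 1514 and 1731 counts in the knockout libraries with vehicle (61.3 and 57.9 CPM), against 0 and 0 counts in the control libraries with vehicle. Over the group this was 929-fold higher against a floor of 3 counts over the control group. In bulk RNA, more cells with the transcript and more transcript per cell cannot be told apart. With LY500307, CLEC5A had 1554 and 1705 counts in the knockout libraries (58.3 and 59.5 CPM), against 5 and 19 counts in the control libraries. The groups did not overlap under either treatment. Over the genome, 40.1% of genes tested were higher in both knockout libraries with LY500307 and 39.5% with vehicle, shares from which nothing is read here since CLEC5A was chosen on the gain.

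The ratio for CLEC5A under LY500307 was 139 (95% counting interval 93.3 to 217), and it depended on which control library was used. It was 337 (144 to 1039) without replicate 2 of the LY500307-treated control cells and 86.9 (55.6 to 145) without replicate 1. Counting intervals cover counting error only, and folds against the floor leave out the counting error of the higher count.

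MGAM had 2916 and 3677 counts in the knockout libraries with vehicle (118.1 and 123 CPM), against 6 and 6 counts in the control libraries with vehicle, a ratio of 472 (270 to 914). With LY500307 it had 2792 and 3018 counts in the knockout libraries (104.7 and 105.4 CPM), against 1 and 43 counts in the control libraries, a ratio of 135 (101 to 186). As for CLEC5A, no knockout library came near a control library. Without replicate 2 of the LY500307-treated control cells the ratio was 3006 (539 to 118755), resting on 1 control count, and without replicate 1 it was 68.5 (50.8 to 94.7). Reads of MGAM could in principle be shared with its close copy MGAM2, which is listed under the older symbol LOC93432 and had no count in any library.

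Per kilobase of the canonical transcript, the level of CLEC5A was 17.0 ± 0.686 CPM per kb and that of MGAM 13.1 ± 0.380 CPM per kb in knockout cells with vehicle (SD, n = 2 each). On the same scale and in the same cells AGK had 12.0 ± 0.467, KIAA1147 5.54 ± 0.00916 and SSBP1 233 ± 6.54 CPM per kb. In knockout cells the gained genes therefore stood at levels like that of AGK, above KIAA1147 and far below SSBP1.

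**Figure D2:**
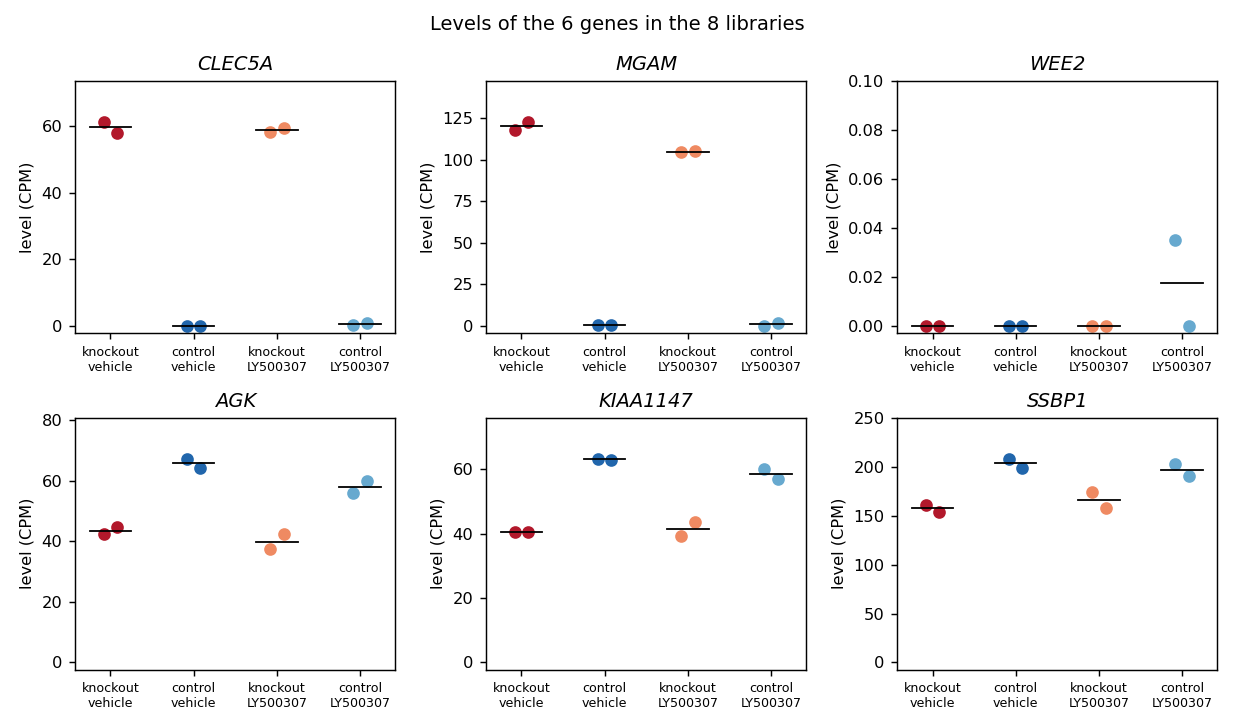
Level (CPM, y axis, starting just below 0, with its own range for each gene) of the 6 genes in the 8 libraries, by group. Each point is 1 library and each bar the mean of 2. CLEC5A and MGAM are high in the knockout groups and near 0 in the control groups, while SSBP1, AGK and KIAA1147 are lower in the knockout groups, and WEE2 has 1 read in all.

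The expressed members beside CLEC5A and MGAM did not share the gain and were lower in knockout cells. Genes were called at a Benjamini-Hochberg adjusted p under 0.05, over the 13498 genes that edgeR's quasi-likelihood test covered. Under that rule 66.2% of genes tested were called between knockout and control cells with LY500307, 32.6% higher and 33.6% lower. The 3 expressed neighbours, all lower, are read against that background. Where genes are said to rise or fall under LY500307, knockout cells are compared with control cells, both given LY500307.

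SSBP1, the mitochondrial DNA binding protein, had 174.1 and 158 CPM in knockout libraries with LY500307, against 202.7 and 191 CPM in control libraries with LY500307. With vehicle it had 160.7 and 154.4 CPM in knockout libraries, against 208.7 and 198.9 CPM in control libraries. The groups did not overlap under either treatment, as for 41.2% of genes tested with LY500307 and 41.8% with vehicle that were lower in both knockout libraries. The log2 fold change of SSBP1 in knockout against control cells was -0.25 under LY500307 (SE 0.0514, edgeR adjusted p = 8.56e-05), and -0.37 with vehicle.

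AGK, the acylglycerol kinase, had 37.5 and 42.4 CPM in knockout libraries with LY500307, against 56.2 and 60.1 CPM in control libraries with LY500307. In cells with vehicle it had 42.4 and 44.8 CPM in knockout libraries, against 67.4 and 64.2 CPM in control libraries. Each knockout library was below each control library given the same treatment, as for 41.2% of genes tested with LY500307 and 41.8% with vehicle. The log2 fold change of AGK was -0.54 under LY500307 (SE 0.0699, edgeR adjusted p = 2.56e-08), and -0.59 with vehicle.

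KIAA1147 had 39.3 and 43.8 CPM in knockout libraries with LY500307, against 60.1 and 57.0 CPM in control libraries with LY500307. With vehicle, KIAA1147 had 40.6 and 40.5 CPM in knockout libraries, against 63.4 and 62.8 CPM in control libraries. It followed the same order as AGK, its neighbour, without overlap between the groups, an order found for 41.2% of genes tested with LY500307 and 41.8% with vehicle. The log2 fold change of KIAA1147 was -0.50 under LY500307 (SE 0.0674, edgeR adjusted p = 7.26e-08), and -0.64 with vehicle.

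WEE2, the oocyte kinase, had 1 read in all 8 libraries, in replicate 1 of the LY500307-treated control cells. It had 0 counts in the 4 knockout libraries, so WEE2 showed no gain like that of CLEC5A. A small gain was not detectable at this depth.

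Between SSBP1 and MGAM lie small genes of taste, smell and protease families that were weakly counted. TAS2R3, TAS2R4, TAS2R5 and TAS2R38 encode bitter taste receptors, OR9A4 an odorant receptor and PRSS37 a protein of the trypsin family known from sperm. TAS2R3 and TAS2R4 lie within the span of SSBP1 as annotated. Of these only TAS2R5 passed the filter on low counts, and it did so through the knockout libraries.

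TAS2R5 had 8 and 9 counts in knockout libraries with LY500307, against 1 and 2 counts in control libraries with LY500307. Without the compound it had 26 and 31 counts in knockout libraries, against 4 and 4 counts in control libraries. The knockout libraries were above the control libraries under each treatment, at levels of at most 1.05 CPM. The same order held for 40.1% of genes tested with LY500307 and 39.5% with vehicle. The log2 fold change of TAS2R5 was 2.44 under LY500307 (SE 0.836) and 2.58 with vehicle. It was 2.03 under LY500307 without replicate 1 of the LY500307-treated control cells. TAS2R5 passed the filter through the knockout libraries with vehicle alone, which favours a gain there, and no test is given for it.

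TAS2R38 lies between the starts of CLEC5A and MGAM. It had 6 counts over the knockout libraries with LY500307, against 0 over the control libraries with LY500307. That is 2.05-fold against the floor of 3 counts. The counting intervals, 2.2 to 13.1 and 0 to 3.69 counts, overlapped. With vehicle TAS2R38 had 5 counts in knockout cells, against 0 in control cells, which is 1.43-fold against the same floor. The counting intervals, 1.62 to 11.7 and 0 to 3.69 counts, overlapped here too. Neither fold of TAS2R38 is therefore a lower bound. OR9A4 had 4 and 0 counts in knockout and control cells with LY500307, and 3 and 0 with vehicle. Reads counted for both genes thus came from knockout libraries alone, in numbers close to the floor. Both genes lie within the span of the longer MGAM transcript. Whether these reads came from that transcript was not tested.

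PRSS37 had 1 and 0 counts in knockout and control cells with LY500307, and 3 and 0 with vehicle. TAS2R3 had 0 and 2 counts with LY500307, and 1 and 0 with vehicle, in the same order of cells. TAS2R4 had 2 and 2 counts with LY500307, and 11 and 1 with vehicle, a ratio of 9.45 (1.37 to 407) with vehicle. None of these 3 genes had enough reads for a statement under LY500307.

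MOXD2P, a transcribed pseudogene 300.1 kb beyond the start of CLEC5A, was the other weak gene that passed the filter, through 4 knockout and 2 control libraries. It had 34 and 51 counts in knockout libraries with LY500307, against 7 and 14 counts in control libraries with LY500307. With vehicle it had 27 and 41 counts in knockout libraries, against 12 and 5 counts in control libraries. The groups did not overlap in either pair, as for 40.1% of genes tested with LY500307 and 39.5% with vehicle that were higher in both knockout libraries. Under LY500307, MOXD2P was higher in knockout than in control cells by 2.03 on the log2 scale (SE 0.411, edgeR adjusted p = 5.42e-05). The value with vehicle was 1.76. CLEC5A and MGAM had 3245 and 6593 counts in knockout cells with vehicle, against which TAS2R5 and MOXD2P had 57 and 68.

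**Figure D3:**
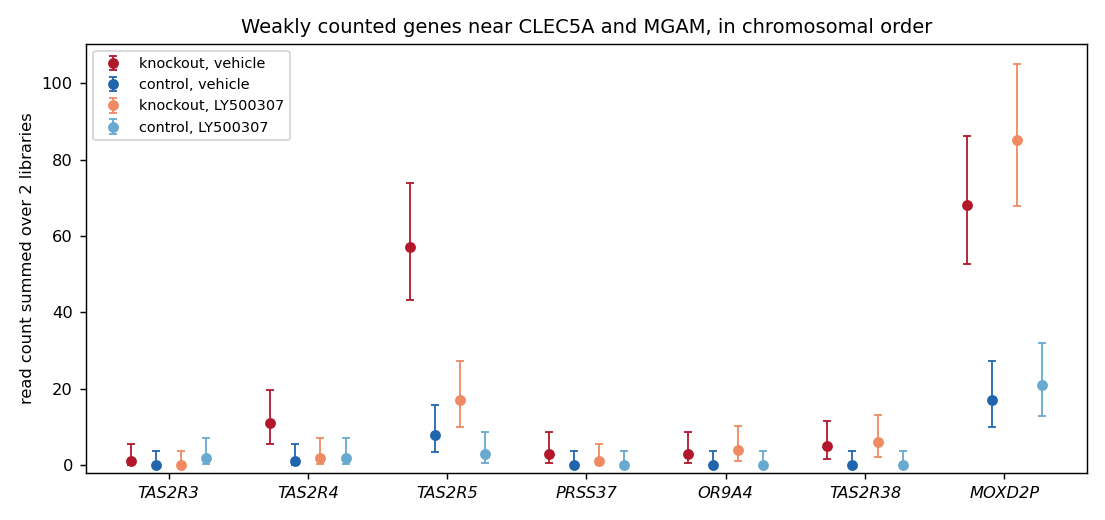
Read counts summed over the 2 libraries of each group (y axis) for the weakly counted genes around CLEC5A and MGAM, in chromosomal order along the x axis, with 95% counting intervals as bars. TAS2R5 reaches 57 and MOXD2P 85 counts in knockout groups, against at most 8 and 21 counts in control groups, and the other genes stay at 11 counts or fewer.

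Within 2 Mb of the CLEC5A start, 57 genes were listed, CLEC5A and MGAM included. Of the other 55, 23 passed the filter, 15 had no count in any library and 17 had too few counts to be tested. Of these 23, 21 passed the filter through knockout and through control libraries alike, and 2 of the 21 rose and 12 fell in knockout cells under LY500307. The counts stand beside 32.6% and 33.6% of genes tested that rose and fell over the genome. The remaining 2 genes passed through 1 kind of cell only, TAS2R5 through knockout and FAM131B through control cells, and are not counted. The genes that rose are MOXD2P and JHDM1D, also called KDM7A, a histone demethylase gene at 1.77 Mb, which was named after its values were seen. It had 15.1 ± 0.313 CPM in knockout cells and 11.1 ± 0.637 CPM in control cells with LY500307 (SD, n = 2 each, log2 fold change 0.45, SE 0.110, edgeR adjusted p = 6e-04).

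Within 1 Mb, 7 genes other than CLEC5A and MGAM were tested. MOXD2P rose, AGK, KIAA1147, SSBP1, MRPS33 and EPHB6 fell, and TAS2R5 was higher without a test. MRPS33, which encodes a protein of the mitochondrial ribosome, had 58.5 and 52.8 CPM in knockout libraries with LY500307, against 65.7 and 67.1 CPM in control libraries with LY500307. Its log2 fold change was -0.26 (SE 0.0639, edgeR adjusted p = 0.000717), and -0.43 with vehicle. The knockout libraries of MRPS33 were below the control libraries under LY500307, as for 41.2% of genes tested.

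EPHB6 moved the other way from CLEC5A by a wide margin. This gene, an ephrin receptor that lacks kinase activity, starts 906.1 kb beyond the start of CLEC5A. It had 10 and 13 counts in knockout libraries with LY500307, against 281 and 298 counts in control libraries with LY500307. With vehicle it had 6 and 7 counts in knockout libraries, against 222 and 197 counts in control libraries. EPHB6 was thus nearly silent in knockout cells and clearly expressed in control cells. The log2 fold change was -4.60 under LY500307 (SE 0.225, edgeR adjusted p = 4.82e-19), and -5.20 with vehicle. A fall of 4-fold or more was found for 3.8% of genes tested under LY500307.

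On the other side, DENND2A, a gene of the same DENN domain family as KIAA1147 that was named after its values were seen, starts 1.31 Mb from CLEC5A. It had 20.9 and 22.3 CPM in knockout libraries with LY500307, against 91.2 and 100.4 CPM in control libraries with LY500307. Its log2 fold change was -2.15 (SE 0.0703, edgeR adjusted p = 3.3e-24), and -2.07 with vehicle. The window around CLEC5A thus held strong losses as well as the strong gain.

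As a description of position, the median log2 fold change under LY500307 was -0.26 over the 7 genes within 1 Mb, -0.24 over the 23 within 2 Mb and -0.26 over the 35 within 5 Mb, CLEC5A and MGAM left out. Over the 422 genes tested on the long arm it was -0.20, beside -0.01 over all 13498 genes. With vehicle the medians were -0.43, -0.36 and -0.37 in the 3 windows, -0.17 on the long arm and -0.01 over all genes. Of the 23 genes within 2 Mb, 18 were below 0 and 5 above 0 under LY500307. On the long arm 281 of 422 genes were below 0, and over all 13498 genes 6805 were below and 6693 above 0. The windows of 2 and 5 Mb include TAS2R5 and FAM131B, which passed the filter through 1 kind of cell only, and that of 1 Mb includes TAS2R5. The highest of the 35 was DGKI, a diacylglycerol kinase gene named after its values were seen, 4.12 Mb from CLEC5A, with 3.36 under LY500307 (SE 0.294) and 3.17 with vehicle. The long arm as a whole thus lay below the median of all genes. A difference in copy number between the cell populations was not measured, and its part in this was not tested.

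**Figure D4:**
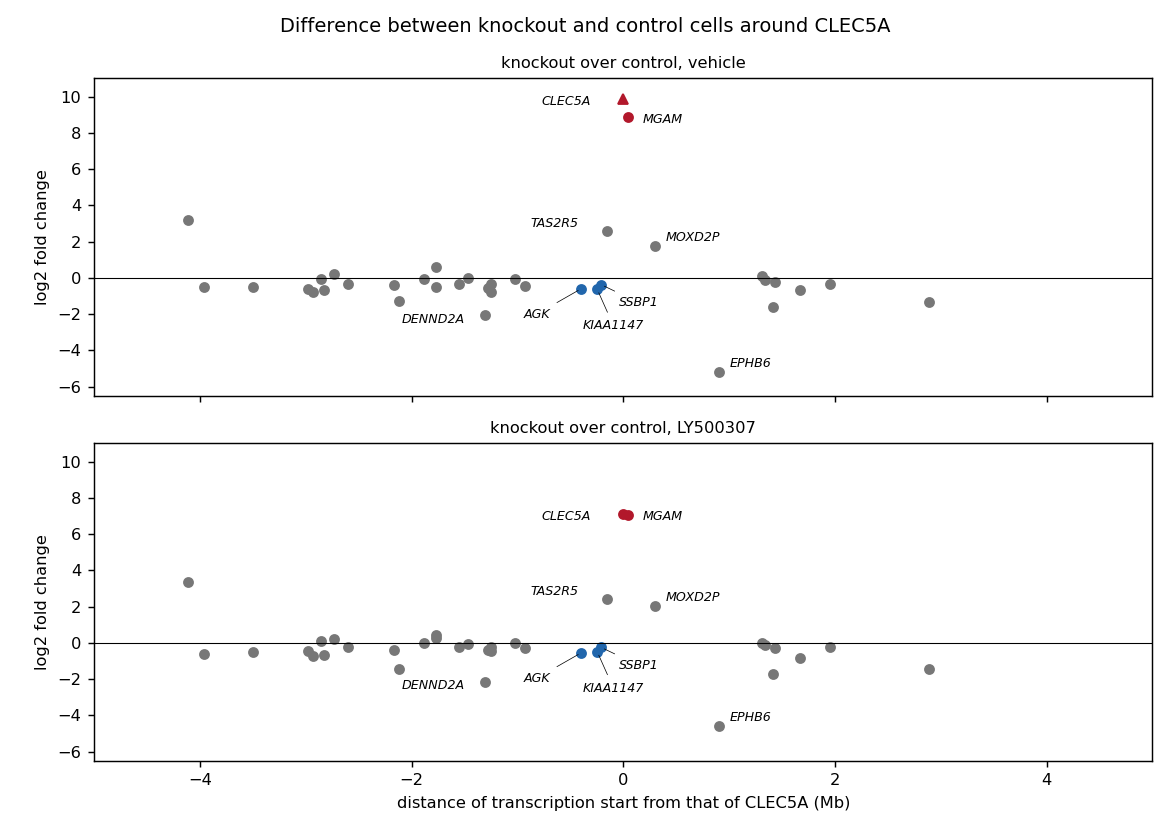
Log2 fold change of knockout over control cells (y axis) of genes tested within 5 Mb of the CLEC5A start, by distance of the start in Mb (x axis), with vehicle above and with LY500307 below. Red marks CLEC5A and MGAM, blue SSBP1, AGK and KIAA1147 and grey the other genes. The triangle is CLEC5A with vehicle, with its 0 counts in control cells set at the floor of 3 counts, at 9.86. CLEC5A and MGAM stand far above 0, TAS2R5 and MOXD2P at about 2 and EPHB6 far below 0, and the high grey point on the left is DGKI at 3.17 and 3.36.

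Gained genes with a gained neighbour were counted as a description. CLEC5A and MGAM were chosen for their gain and their position, so their presence in these counts restates that choice. With LY500307, 0.304% of genes tested were at least 16-fold higher in knockout than in control cells, and 40 of them had a known position. Another such gene lay within 200 kb for 2 of these 40 (5%), CLEC5A and MGAM, and within 500 kb for the same number. With vehicle, where 0.459% of genes tested passed that size, 4 of 60 (6.67%) had such a neighbour, namely CLEC5A, MGAM and the butyrophilin-like genes BTNL3 and BTNL8. BTNL3 and BTNL8 are similar in sequence, so their counts may be split between them. At 8-fold, which 0.622% of genes tested reached, the number under LY500307 was 6 of 82 genes, with BTNL3, BTNL8, PCDHB9 and PCDHB17 in addition. Within 500 kb the numbers were larger, with 8 of 60 genes (13.3%) at 16-fold with vehicle and 11 of 82 genes (13.4%) at 8-fold with LY500307. Those included the keratin genes KRT75 and KRT79.

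In knockout cells CLEC5A stood at a similar level with LY500307 and with vehicle. CLEC5A averaged 58.9 ± 0.903 CPM with LY500307 and 59.6 ± 2.40 CPM with vehicle (SD, n = 2 each), a log2 fold change of -0.02 (95% interval -0.18 to 0.15). MGAM averaged 105 ± 0.504 CPM with LY500307 and 120.5 ± 3.49 CPM with vehicle in knockout cells. The libraries of MGAM did not overlap, as for 27.8% of genes tested that were lower in both treated libraries. Its log2 fold change was -0.20 (SE 0.0963). CLEC5A and MGAM were chosen for being high in knockout cells with vehicle, which favours a fall from that level. Both are therefore described here with no test.

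SSBP1, AGK and KIAA1147 differed little with LY500307 in knockout cells. Their log2 fold changes were 0.08 for SSBP1 (edgeR adjusted p = 0.321), -0.13 for AGK (0.218) and 0.04 for KIAA1147 (0.764). None of them was called by edgeR or by DESeq2. Of the 25 genes tested within 2 Mb, 4 were called in knockout cells, where 20.4% of genes tested were called over the genome. Without replicate 2 of the knockout cells with vehicle the count was 1. TAS2R5 was 1 of the 4, with 8 and 9 counts with LY500307, against 26 and 31 counts with vehicle, the libraries through which it passed the filter. Its log2 fold change of -1.75 (SE 0.453) is a description with no test, since passing through those libraries favours a fall from them. The other 3 were GSTK1, CASP2 and FAM115A, named after their values were seen, with log2 fold changes of -0.20, -0.27 and -0.17.

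In control cells the few reads of CLEC5A and MGAM came mostly from 1 library. CLEC5A had 5 and 19 counts with LY500307, against 0 and 0 counts with vehicle. Against the floor of 3 counts this is 6.62-fold higher over the group. The fold was 2.73 without replicate 2 of the LY500307-treated cells, which held 19 of the 24 counts, and 10.6 without replicate 1. These folds leave out the counting error of the LY500307 counts and are no lower bounds. The fold of 2.73 rests on 5 counts, with a counting interval of 1.62 to 11.7. CLEC5A and MGAM were chosen for being near 0 in control cells with vehicle, so both are described here with no test. The level reached 0.678 CPM at most, far below the 57.9 CPM of the lowest knockout library. MGAM had 1 and 43 counts with LY500307, against 6 and 6 counts with vehicle, and the 2 treated libraries lay on either side of the vehicle libraries. Its log2 fold change was 1.59 (SE 0.655). Without replicate 2 of the LY500307-treated control cells it was -2.72, and without replicate 1 it was 2.56. Between these replicates MGAM differed 43.9-fold (7.47 to 1774) and CLEC5A 3.88-fold (1.40 to 13.3).

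Of the other members, AGK was at 56.2 and 60.1 CPM with LY500307, against 67.4 and 64.2 CPM with vehicle in control cells. Its log2 fold change of -0.18 (SE 0.0680) was called with little room (edgeR adjusted p = 0.0482). The call ended when any of the 4 control libraries was left out, with adjusted p-values of 0.311 and 0.0573 without replicate 1 and 2 of the LY500307-treated cells, and 0.256 and 0.0756 without replicate 1 and 2 of the cells with vehicle. KIAA1147 (-0.11, edgeR adjusted p = 0.238) and SSBP1 (-0.05, adjusted p = 0.507) were not called. Of the 25 genes tested within 2 Mb, 6 were called in control cells, where 26.3% of genes tested were called. CLEC5A was among the 6, and nothing is read from its call.

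The LY500307 effect in knockout cells minus that in control cells was fitted as an interaction. SSBP1, AGK and KIAA1147 had differences of 0.13, 0.05 and 0.14 on the log2 scale with edgeR adjusted p-values of 0.45, 0.867 and 0.535, and none was called. For CLEC5A and MGAM the interaction holds the difference with vehicle on which they were chosen, so their values are a description with no test. The fitted difference was -6.53 for CLEC5A, which depends on how the 0 counts of control cells with vehicle are treated and is no bound. It was -5.27 without replicate 2 of the LY500307-treated control cells. MGAM had a difference of -1.78, which was 2.52 without that replicate and -2.76 without replicate 1. Of the 25 genes tested within 2 Mb, CLEC5A was the 1 gene past the threshold, where 1.62% of genes tested passed over the genome, and nothing is read from it.

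The genes with the most similar pattern were found by Euclidean distance of log2(CPM + 0.5) over the 8 libraries. These include the libraries on which CLEC5A and MGAM were chosen for a shared gain, so their likeness restates the choice. MGAM was the nearest gene to CLEC5A and CLEC5A the nearest to MGAM, at a distance of 2.21. Next to CLEC5A came SGCZ at 2.40, CCDC147 at 2.79, LAMA1 at 3.66 and BST2 at 3.70. Next to MGAM came LAMA1 at 2.48, SGCZ at 2.54, CCDC147 at 4.38 and IL13RA2 at 4.51. SGCZ encodes a sarcoglycan, LAMA1 a laminin chain, BST2 the interferon-induced antiviral protein tetherin and IL13RA2 a decoy receptor for interleukin 13. The genes listed after MGAM and CLEC5A lie on chromosomes other than 7. SGCZ, for example, had 55.6 ± 1.41 CPM in knockout cells and 1.40 ± 0.744 CPM in control cells with LY500307 (SD, n = 2 each).

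The partners through which CLEC5A is known to signal were described next. TYROBP, which encodes DAP12, had no count in any library. SYK, the kinase downstream of DAP12, had 5 counts in knockout cells and 6 counts in control cells with LY500307, and 3 and 10 counts with vehicle in that order. HCST, which encodes the related adaptor DAP10, had 4 counts in knockout cells and 3 in control cells with LY500307. Of 13 listed genes of this pathway 9 were tested, and under LY500307 4 rose and 2 fell in knockout cells, beside the 32.6% and 33.6% over the genome. PLCG2 is counted among the 4, although it passed the filter through knockout libraries alone, and nothing is read from its call. The median log2 fold change of the 9 genes was -0.04, against -0.01 over all genes tested.

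Among them, MALT1, a protease of the CARD9 complex, rose to 82.7 ± 0.780 CPM in knockout cells, against 47.2 ± 0.786 CPM in control cells with LY500307 (SD, n = 2 each, log2 fold change 0.81, edgeR adjusted p = 7.27e-14). BCL10, its partner, rose by 0.26 on the log2 scale (adjusted p = 2.92e-04). LYN, a SRC family kinase, fell to 4.31 ± 0.958 CPM in knockout cells, against 10.2 ± 0.0514 CPM in control cells (log2 fold change -1.25, adjusted p = 2.67e-09). VAV3 rose by 1.22, with a mean of 1.28 CPM in knockout cells, and in DESeq2 it missed the threshold (adjusted p = 0.0517). PLCG1, at -0.18, missed the threshold without replicate 1 of the LY500307-treated knockout cells. PLCG2 had a log2 fold change of 1.76, with means of 0.668 CPM in knockout cells and 0.195 CPM in control cells with LY500307. It passed the filter through knockout libraries alone, which favours a gain there, and no test is given for it.

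Other C-type lectins were mostly without reads. Of 20 listed, 10 had no count in any library and 5 were tested, of which 2 rose and 2 fell in knockout cells under LY500307 (genome 32.6% and 33.6%), with a median log2 fold change of 0.08. CLEC11A, a secreted growth factor for blood progenitors, fell to 30.9 CPM in knockout cells, against 54.5 CPM in control cells (-0.82, edgeR adjusted p = 2.73e-12). CLEC16A, which acts in mitophagy, fell by 0.52 on the log2 scale (adjusted p = 5.83e-06). CLEC2B and CLEC2D rose by 0.32 and 0.40. CLEC2B missed the threshold without replicate 1 of the LY500307-treated knockout cells (adjusted p = 0.0767). CLEC2D missed it without replicate 2 of those cells (0.237), without replicate 1 of the LY500307-treated control cells (0.366) and in DESeq2 (0.156). The myeloid lectins CLEC7A, CLEC4D, CLEC4E and CLEC12A had no read in either LY500307 group, and are named for their known role.

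Of 11 listed enzymes related to MGAM, 5 were tested, and 2 rose and 3 fell in knockout cells under LY500307 (genome 32.6% and 33.6%), with a median log2 fold change of -0.53. SI, the sucrase-isomaltase that works beside MGAM in the intestine, had 0 counts in the knockout libraries and 1 count in the control libraries with LY500307. AMY2B, an amylase, rose by 2.50 (adjusted p = 5.65e-11), but amylase genes are near-identical copies between which reads may be split. GAA, the lysosomal alpha-glucosidase, fell by 0.63, GANC, a cytosolic one, by 0.53 and GANAB, of the endoplasmic reticulum, by 0.54 on the log2 scale (adjusted p = 3.48e-10, 6.09e-04 and 8.64e-14).

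Of genes that maintain mitochondrial DNA together with SSBP1, all 14 listed were tested. Under LY500307, 7 rose and 3 fell in knockout cells, beside 32.6% and 33.6% over the genome, with a median log2 fold change of 0.14. TFAM, which packages mitochondrial DNA, rose by 0.36 (edgeR adjusted p = 2.24e-07) and POLG, the catalytic subunit of its polymerase, by 0.35 (4.66e-06). C10orf2, the helicase Twinkle, rose by 0.25 (0.00103). With vehicle the log2 fold changes of TFAM, POLG and C10orf2 were 0.25, 0.24 and -0.00. POLRMT and TFB2M, of the transcription machinery, rose by 0.41 and 0.48 (2.19e-06 and 1.17e-08), and TOP1MT by 0.30 (5.76e-05). LONP1 rose by 0.14 and missed the threshold without replicate 2 of the LY500307-treated knockout cells (0.304) or replicate 1 of the LY500307-treated control cells (0.133). The nucleoside kinases TK2 and DGUOK fell by 0.44 and 0.43 on the log2 scale, and RNASEH1 fell by 0.26.

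A list of 7 genes held members of the TIM22 complex, in which AGK acts, and small chaperones of the intermembrane space. Of these, 1 rose and 2 fell in knockout cells under LY500307 (genome 32.6% and 33.6%), with a median log2 fold change of -0.11. The 2 that fell encode such chaperones. TIMM9, a chaperone of the intermembrane space, rose by 0.45 (edgeR adjusted p = 5.9e-06). The related TIMM13 fell by 0.36 on the log2 scale (1.71e-04). TIMM8B fell by 0.38 and missed the threshold without replicate 2 of the LY500307-treated knockout cells (0.0545). Leaving out replicate 1 of those cells gave 4 genes that fell. TIMM22, the channel itself, had a log2 fold change of -0.11 (0.244).

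A list of 8 genes held CDK1, the kinase that WEE2 inhibits, and its regulators. Of these, 1 rose and 4 fell in knockout cells under LY500307 (genome 32.6% and 33.6%), with a median log2 fold change of -0.14. PKMYT1, a kinase that acts like WEE1, fell by 0.45 (edgeR adjusted p = 3.07e-06) and CCNB2, a cyclin, by 0.50 on the log2 scale (9.16e-10). WEE1 itself had 32.9 CPM in knockout cells and 35.1 CPM in control cells (-0.09, 0.306). CDK1, among the 4 that fell, was at -0.18 under LY500307 and on the other side of 0 with vehicle, at 0.20. The difference between these, fitted as an interaction, was -0.38 (edgeR adjusted p = 0.00109). The fall of CDK1 missed the threshold without replicate 1 of the LY500307-treated control cells. CDC25B at 0.20 missed it without that replicate (0.0703) or replicate 2 of the LY500307-treated knockout cells (0.065). CDC25C at -0.30 missed it without replicate 1 of the LY500307-treated knockout cells (0.0749) or replicate 2 of the LY500307-treated control cells (0.0685).

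Markers of the cells that normally express CLEC5A or MGAM were scarce. Of 14 myeloid markers 6 were at 0 in all libraries, namely AIF1, MPO, S100A8, S100A9, FCGR1A and FCGR3A. The summed level was 63.3 to 76.1 CPM in knockout libraries and 112 to 113 CPM in control libraries with LY500307, of which CD68, a lysosomal protein, gave 67.8 ± 8.36 and 111 ± 0.792 CPM (SD, n = 2 each). Of 11 markers of intestinal epithelium 6 were at 0 in all libraries, namely CDX1, CDX2, FABP1, FABP2, ALPI and SLC5A1. Their summed level was 273 to 281 CPM in knockout libraries and 548 to 569 CPM in control libraries with LY500307, carried by ANPEP, a peptidase of many cell types. Single markers went the other way. LYZ, the myeloid lysozyme, rose to 1.39 ± 0.683 CPM in knockout cells, against 0.459 ± 0.00667 CPM in control cells with LY500307 (log2 fold change 1.58, edgeR adjusted p = 7.46e-04). LCT, the intestinal lactase, had 19 counts in knockout cells and 3 in control cells with LY500307. The part of other cell types in the levels of CLEC5A and MGAM was not tested.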

How the data were processed

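The deposited files hold raw read counts per gene symbol, 1 file for each library. Per the submitters' processing notes, bcl2fastq, TopHat2 2.0.8b and HTSeq were used with hg19. Per the labels' protocols, reads were single-end of 50 bases. Entries that name no gene were left out of library sizes. They were 10.7% to 12.8% (no feature) and 0.811% to 0.861% (ambiguous) of uniquely aligned reads. Of the sample columns, 0 were left unused.

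The members and gene lists were chosen with earlier results of these data known. Of 23228 genes, 5520 had no count and filterByExpr kept 13498. Counts were scaled by TMM and fitted with edgeR 4.0.16 (R 4.3.3), as a quasi-likelihood model of 4 group means over 8 libraries, with 4 residual and 30.1 prior degrees of freedom and a biological coefficient of variation of 3.95%. Tests were two-sided, with Benjamini-Hochberg adjustment at 0.05. The SE is the size of the log2 fold change divided by the square root of F. The script was tested on simulated data. DESeq2 1.42.0, other scalings and filters, a replicate block and leaving out each library were alternatives. Counting intervals are exact, at 95%.

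Gene positions came from GENCODE on GRCh37, 19137 by symbol and 3170 by an older symbol or identifier of RefSeq, and 921 symbols were unmatched. Promoter windows for all 6 members came from RefSeq (GRCh38.p14). The genes named were the members, the genes tested within 1 Mb, the genes listed between WEE2 and MGAM, KDM1A, the 5 genes nearest in pattern to CLEC5A and to MGAM, and called or abundant genes of the lists. The values of 1 gene of the list of enzymes related to MGAM are not reported here.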

Additional observations from a re-analysis of the deposited data

Results flagged for a closer look

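The fitted LY500307 effect on CLEC5A in knockout cells minus that in control cells was -6.53 on the log2 scale, past the threshold over all genes tested. CLEC5A had 1554 and 1705 counts with LY500307 and 1514 and 1731 counts with vehicle in knockout cells, and 5 and 19 counts with LY500307 and 0 and 0 counts with vehicle in control cells. The value holds the 0 counts on which CLEC5A was chosen, so it is a description and supports no difference between the cells. Without replicate 2 of the LY500307-treated control cells, in which 7 of 7 genes with a large gain in knockout had more reads than in replicate 1, it was -5.27 and did not pass the threshold.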

How the results depend on the processing

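Of 701 alternatives for single genes, 651 kept the direction and the side of the threshold. The count of flanking genes called under LY500307, 16 with TAS2R5 and FAM131B included, was 15 to 16 over the alternatives. The genes called within 2 Mb for LY500307 in knockout cells were 4 with TAS2R5 included, and 2 with DESeq2. Leaving out 1 library gave 1 to 4 in knockout cells, 3 to 5 against 6 in control cells, and 0 to 2 against 1 for the interaction, which was also 2 when each gene with a count was kept. With library totals as scaling, which moved the median of all genes by at most 0.08, the flanking median with vehicle was -0.31 against -0.36 and the profile value -0.21 against -0.24. At 8-fold, 6 genes had a gained neighbour within 200 kb, against 2 at 16-fold. Values that turned sign were small or rested on few counts. For LY500307 in knockout cells, CLEC5A was 0.04 with library totals. With 1 library left out, CLEC5A lay between -0.06 and 0.02 (above 0 without replicate 1 of the knockout cells with vehicle), SSBP1 between -0.0054 and 0.14 and KIAA1147 between -0.05 and 0.10. The interaction of AGK lay between -0.05 and 0.12. SSBP1 in control cells was 0.02 with library totals. Over the libraries left out, MGAM lay between -2.72 and 2.56 in control cells and between -2.76 and 2.52 for the interaction, with the changed sign without replicate 2 of the LY500307-treated control cells. The cause was not tested.

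Replicate numbers are shared by the groups, but nothing says that they pair libraries. Deviations of same-numbered libraries correlated at 0.107 to 0.274 over 9673 genes, with 2 numbers only. With a replicate block, 16 flanking genes were called under LY500307, 6 genes for LY500307 in knockout cells, 7 in control cells and 1 for the interaction. The share of all genes called is not given for this or the other alternatives. Nothing is therefore read from changes in these counts. At this depth, genes with a few reads, such as OR9A4 and PRSS37, could not be compared.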
